A study of Homo sapiens with 6 samples.

Results

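The 58 genes described here encode the machinery that drives cells through G1 and mitosis and the controls placed on it: cyclins and their kinases, kinase inhibitors, pocket proteins, mitotic kinases, the spindle checkpoint, and the proteins of the centromere, the spindle and the cleavage furrow. They were picked by name for their roles, by no cut-off on a measured value, but with earlier results of these data known. The files quantify transcripts of 34834 genes, of which these are 58. In all, 19 are regulators of G1 and of entry into S phase, 34 are genes of G2 and mitosis (G2/M), and 5 (CDK7, CCNG1, CKS1B, PLK4 and FZR1) act in neither group alone. At least 1 read was counted in some sample for 57 of the 58. The filter on low counts kept 45 of them for testing, namely 10 of the 19 G1 regulators, 32 of the 34 G2/M genes and 3 of the other 5.

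RNA sequencing was performed on SKOV3 cells, a human ovarian cancer cell line. In 3 samples the cells had received 50 nM of a pool of 4 siRNAs against the long non-coding RNA DNM3OS, and in 3 control samples 50 nM of a non-targeting siRNA pool (NT). All 6 were transfected with Lipofectamine 2000, and RNA was profiled after 48 h. The comparison asks which transcripts differ when DNM3OS is depleted. Both groups come from 1 cell line and 1 pool per target, and the sources do not say whether the triplicates were separate cultures, so p-values here measure only the spread between these samples, which may be technical. The level of DNM3OS itself was not analysed here. A stranded kit was used to make libraries from total RNA without ribosomal RNA, and values are kallisto estimated counts summed per gene.

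Cells pass through G1 when cyclin D with CDK4 or CDK6, and then cyclin E with CDK2, phosphorylate the retinoblastoma protein and its relatives, which frees E2F transcription factors to switch on genes for DNA synthesis. Entry into mitosis follows from cyclin B with CDK1, which CDC25 phosphatases activate and WEE1 restrains, while PLK1 and the Aurora kinases build the spindle and the checkpoint holds back anaphase until chromosomes are attached. Most G2/M transcripts accumulate late in the cycle, under a repressor complex in resting cells and under MYBL2 and FOXM1 in cycling cells, and many of their promoters carry CCAAT boxes and a short element called the cell cycle genes homology region (CHR). In a population that is not synchronised, the level of these mRNAs follows both the share of cells in G2/M and the amount of RNA per cell, and in bulk samples fewer such cells and less RNA per cell cannot be told apart.

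The promoters of 3 G2/M genes and both G1 regulators among the 6 members with the lowest p in the knockdown comparison are shown as examples of the motif content of the 2 lists. Each runs from 250 bases before to 50 bases after the RefSeq start on GRCh38.p14, 5′ to 3′ on the strand of the gene. Capitals mark a CHR motif (TTTGAA, or TTCAAA where it lies on the other strand) or a CCAAT box (CCAAT, or ATTGG on the other strand). They are PLK1 (chr16:23678639-23678938, plus strand), CENPF (chr1:214602945-214603244, plus strand), TOP2A (chr17:40417847-40418146, minus strand), CDKN1B (chr12:12717118-12717417, plus strand) and RBL2 (chr16:53434221-53434520, plus strand).
PLK1: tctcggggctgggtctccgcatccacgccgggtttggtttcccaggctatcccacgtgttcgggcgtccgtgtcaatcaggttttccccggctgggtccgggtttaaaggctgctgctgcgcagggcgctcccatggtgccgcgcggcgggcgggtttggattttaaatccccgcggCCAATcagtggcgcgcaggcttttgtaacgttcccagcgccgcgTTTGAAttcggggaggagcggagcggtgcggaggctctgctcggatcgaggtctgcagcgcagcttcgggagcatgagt
CENPF: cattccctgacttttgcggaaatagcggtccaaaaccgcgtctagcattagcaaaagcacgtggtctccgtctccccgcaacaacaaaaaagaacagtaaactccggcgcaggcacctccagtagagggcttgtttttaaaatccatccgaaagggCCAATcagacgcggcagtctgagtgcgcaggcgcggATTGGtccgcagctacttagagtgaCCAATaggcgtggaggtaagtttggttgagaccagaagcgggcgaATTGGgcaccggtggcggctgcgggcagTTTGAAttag
TOP2A: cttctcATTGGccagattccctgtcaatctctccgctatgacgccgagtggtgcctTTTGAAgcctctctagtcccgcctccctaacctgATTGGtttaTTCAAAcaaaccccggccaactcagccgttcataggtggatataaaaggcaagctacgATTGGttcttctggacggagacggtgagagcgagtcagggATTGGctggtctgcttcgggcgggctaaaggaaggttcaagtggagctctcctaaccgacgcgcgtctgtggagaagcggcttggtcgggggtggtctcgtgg
CDKN1B: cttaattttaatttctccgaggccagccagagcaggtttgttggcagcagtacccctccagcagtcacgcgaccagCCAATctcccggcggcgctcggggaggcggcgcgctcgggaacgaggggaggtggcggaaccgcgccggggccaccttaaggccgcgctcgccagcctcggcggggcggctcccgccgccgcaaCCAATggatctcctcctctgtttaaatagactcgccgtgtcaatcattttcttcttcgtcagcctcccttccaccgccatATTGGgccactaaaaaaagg
RBL2: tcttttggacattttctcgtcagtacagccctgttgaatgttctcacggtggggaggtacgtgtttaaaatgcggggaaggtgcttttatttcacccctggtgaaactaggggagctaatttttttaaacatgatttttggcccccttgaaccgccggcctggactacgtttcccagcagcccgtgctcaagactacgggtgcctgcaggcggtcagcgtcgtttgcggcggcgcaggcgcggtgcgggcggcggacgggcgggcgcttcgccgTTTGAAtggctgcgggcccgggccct
The PLK1 window holds 1 CHR motif and 1 CCAAT box, both close to the start. The CENPF window holds 1 CHR motif and 4 CCAAT boxes, and the TOP2A window 2 CHR motifs and 4 CCAAT boxes. Among the G1 regulators, the CDKN1B window holds 3 CCAAT boxes and none of the CHR letters, whereas the RBL2 window holds 1 CHR motif and no CCAAT box. A second RBL2 window, at chr16:53435369-53435668, holds 1 CCAAT box and no CHR motif.

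RefSeq promoters could be matched by symbol for 46 of the 58 members, with 69 windows because some genes have several starts. Of the 36 windows of 26 G2/M genes, 58.3% held TTTGAA on either strand, against 8.70% of the 23 windows of 15 G1 regulators and 15.2% of all 35093 windows of this length. CCAAT on either strand was in 75.0% of the G2/M windows, 34.8% of the G1 windows and 34.6% of all windows. Both motifs occurred together in 50.0%, 4.35% and 5.90%, counting neighbouring matches that share a base. The E2F-type sequence TTTNNCGC did not separate the lists in this way, being in 13.9% of G2/M, 17.4% of G1 and 6.89% of all windows. A match describes these letters only, and windows of 1 gene can overlap.

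Depth and library composition set the limits for these genes. The samples held between 1610937 and 1995888 estimated counts, of which 93.6% to 95.2% fell on annotated transcripts, and 3 counts in 1 library equal 1.61 to 1.97 CPM (the count divided by all counts of its library and rescaled, here without TMM factors). PLLP alone took 15.7% to 22.2% of the counts on genes, while the 58 members together took 0.107% to 0.187%. The median member had a mean of 23.0 counts a sample. The 87 ribosomal protein genes took 0.234%, 0.388% and 0.401% in DNM3OS knockdown replicates 1, 2 and 3, against 0.547%, 0.323% and 0.528% in NT replicates 1, 2 and 3. Knockdown replicate 1 and NT replicate 2 had the lowest shares, with NT replicate 2 close below knockdown replicate 2, and NT replicates 1 and 3 the highest. Across all tested genes the deviations of knockdown replicate 1 and NT replicate 2 from the mean of their own group ran together (Pearson's r across genes 0.533, where genes are not independent replicates). Epithelial markers were present, with 1195 to 2566 counts of KRT8 and 311 to 872 of ERBB2, although MUC16 had at most 2 counts. Of the leukocyte markers, CD3D and CD14 were at 0 in every sample and PTPRC had 91 to 148 counts. LYZ and CD68 were also counted in every sample. Of the 9 fibroblast and endothelial markers 4 passed the filter, with 29 to 58 counts of DCN, 24 to 62 of PECAM1, 8 to 22 of COL1A2 and 10 to 19 of COL1A1, while PDGFRB and VWF had at most 1 count. Markers of these other cell types were thus not all absent, and none of the 3 marker lists held a gene at an unadjusted p below 0.05.

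When ordered by length-normalised abundance (TPM), the members spanned the range from abundant kinases to genes without a read, as plotted for every member and sample. CDK4, the cyclin D-dependent kinase of G1, was highest, at 184 ± 27.4 TPM in the knockdown and 203 ± 5.92 TPM in the controls (mean ± SD, n = 3 each). PRC1, which bundles microtubules of the central spindle, followed at 111 ± 32.3 and 126 ± 25.4 TPM. CCND1, encoding cyclin D1, stood at 83.8 ± 6.10 and 100.2 ± 27.8 TPM.

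The next in order were ECT2, the exchange factor that starts the cleavage furrow, at a median of 82.0 TPM over all samples, and FOXM1, a transcription factor for mitotic genes, at 39.9 TPM. PRC1, CCND1 and ECT2 overlapped in their ranges over the 6 samples and could not be ordered beyond that spread, whereas every CDK4 value was above every value of the other members. In total 36 members had a median above 10 TPM and 11 a median below 5 TPM. The median G2/M gene stood at 15.4 TPM and the median G1 regulator at 6.14 TPM.

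**Figure D1:**
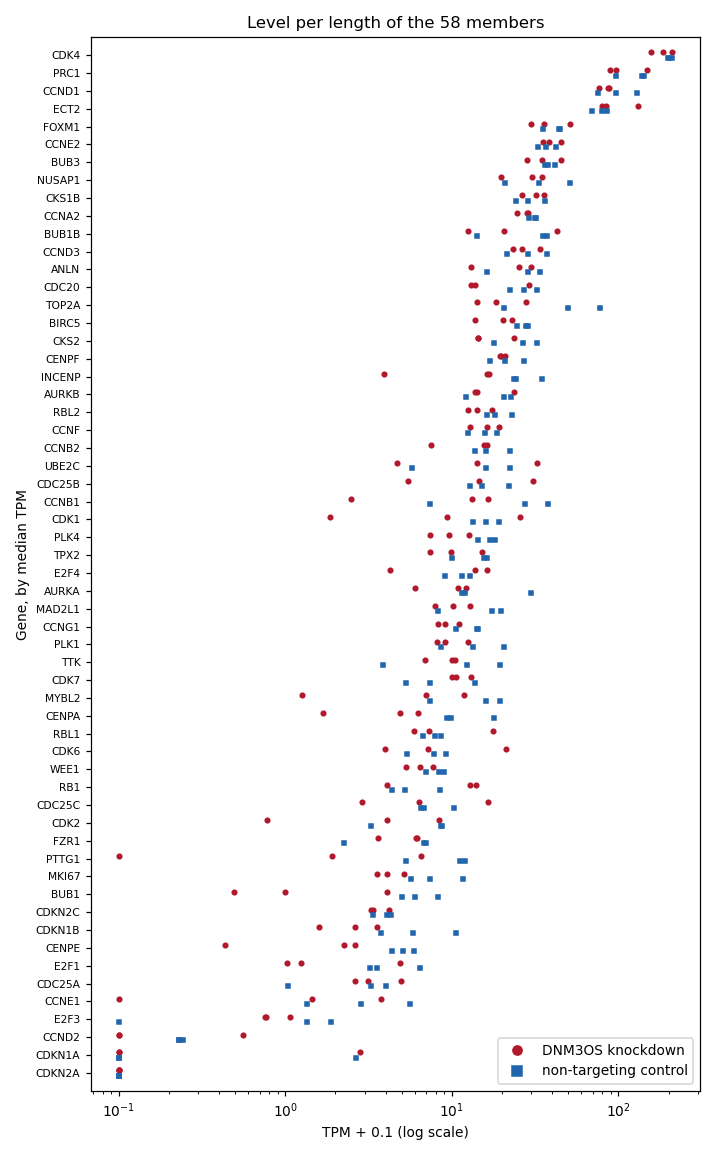
Level of each of the 58 genes in each of the 6 samples, as TPM plus 0.1 on a log axis, with genes on the vertical axis ordered by median TPM, circles for DNM3OS knockdown and squares for non-targeting control samples. CDK4 lies at the top with a median of 199.9 TPM, CDKN2A at the bottom was listed at 0 in all 6 samples, and for most genes the circles and squares intermingle.

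No member reached the threshold of the comparison, which was a 2-fold change with an adjusted p below 0.05 in edgeR's exact test with Benjamini-Hochberg adjustment over 11814 tested genes. Across all those genes 0.00846% were called lower and 0% higher, and the adjusted p of each tested member was 1. In direction, the mean of 41 of the 45 tested members was lower with DNM3OS depleted and that of 4 was higher, where 49.4% of all tested genes had a lower mean. At an unadjusted p below 0.05, 8 members were lower (MKI67, PLK1, CENPF, RBL2, CDKN1B, TOP2A, CCNB1 and CENPE) and 0 were higher, against a background of 1.85% of tested genes lower and 0.956% higher. In GENCODE coordinates on GRCh38, MKI67 lies at chr10:128096659-128126423 (minus strand), PLK1 at chr16:23677656-23690367 (plus), CENPF at chr1:214603185-214664574 (plus), RBL2 at chr16:53433977-53491648 (plus), CDKN1B at chr12:12685498-12722369 (plus) and TOP2A at chr17:40388525-40417896 (minus). The median log2 fold change of the 45 was -0.38, against 0.004 for all tested genes. The quasi-likelihood test of edgeR and DESeq2 likewise called 0 members, with 7 and 6 lower at an unadjusted p below 0.05. Of all tested genes 1.85% and 1.35% were lower at that level in these 2 fits.

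The lower values did not follow the groups cleanly. In 3 members every knockdown sample was below every control (PLK1, CDKN1B and BIRC5), where 3.56% of all tested genes show that order, and in 0 members was every knockdown sample above, where 4.42% of genes do. The order of BIRC5 was lost when TMM factors came from unfiltered genes, from genes with 1 CPM in 3 samples or from protein-coding genes only. Knockdown replicate 1 was the lowest sample for 32 of the 45 members, and NT replicate 1 or NT replicate 3 the highest for 20 and 13. How often each sample was lowest or highest among all tested genes was not counted, so this may not be particular to the members. The summed level of the 45 was 910, 1503 and 1460 CPM in knockdown replicates 1 to 3 and 1881, 1293 and 1818 CPM in NT replicates 1 to 3. NT replicate 2 therefore lay below knockdown replicates 2 and 3. The heat map of the tested members shows the same columns dark for one gene after another.

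**Figure D2:**
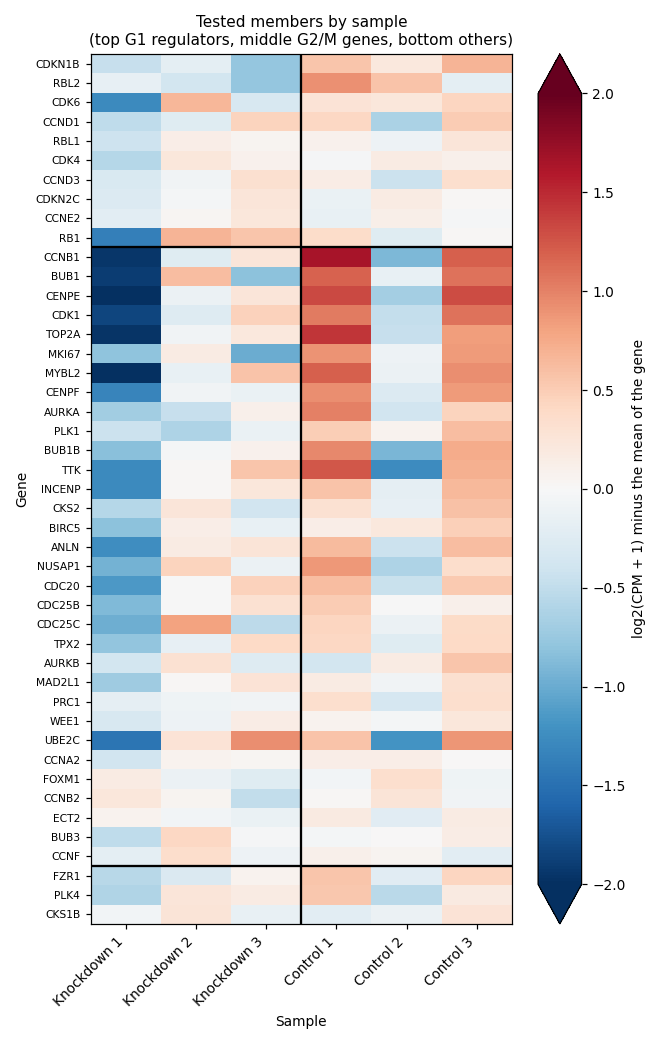
Level of the 45 tested genes (rows) in the 6 samples (columns), as log2(CPM + 1) minus the mean of each gene, with red above and blue below the gene's mean and colours that end at 2 log2 units either way. Knockdown replicate 1 is the lowest sample for 32 of the 45 genes, and control replicate 2 is pale or blue for most G2/M genes while control replicates 1 and 3 are red.

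The summed level of the 34 G2/M genes was 613, 1054 and 997 CPM after knockdown and 1430, 885 and 1340 CPM in the controls (888 ± 240.2 against 1218 ± 292, mean ± SD, n = 3 each). That of the 19 G1 regulators was 282, 430 and 455 CPM against 456, 399 and 469 CPM (389 ± 93.1 against 441 ± 37.0). In both lists the 2 groups overlapped, since NT replicate 2 fell below knockdown replicates 2 and 3. Ordering the samples by these sums gave nearly the order of their ribosomal protein share, in which knockdown replicate 1 was lowest, NT replicate 2 next, and NT replicates 1 and 3 highest. The mean of that share was 0.341 ± 0.0930% in the knockdown and 0.466 ± 0.124% in the controls.

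**Figure D3:**
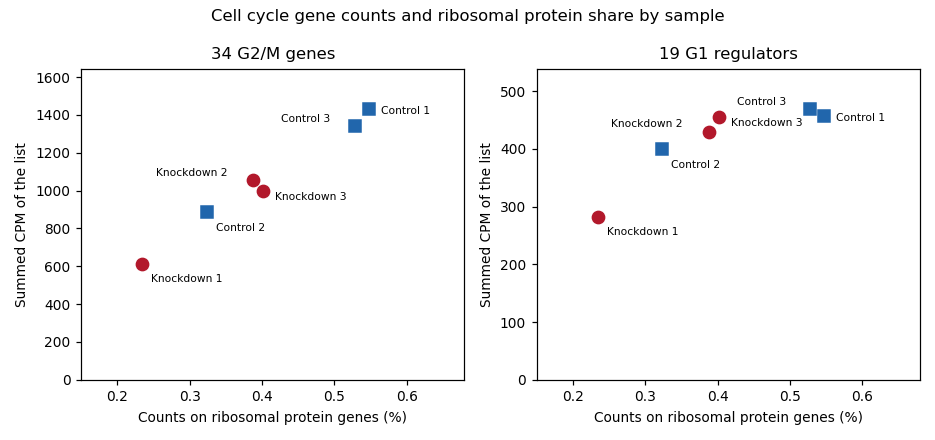
Summed CPM of the 34 G2/M genes (left) and 19 G1 regulators (right) against the percentage of gene counts on ribosomal protein genes, with 1 point per sample, circles for knockdown and squares for control. On the left the 6 points climb together from knockdown replicate 1 (0.234%, 613 CPM) to control replicate 1 (0.547%, 1430 CPM), and the 2 groups interleave along that climb.

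The ribosomal protein share, as its log2 value, was then entered in the quasi-likelihood fit as a covariate. In that fit 19 members were lower and 26 higher, and the median log2 fold change of the 45 was 0.02. RBL2 and PLK1 were then lower at an unadjusted p below 0.05 (log2 fold changes -1.11 and -0.62) and UBE2C higher (1.46). Of all tested genes 1.66% were lower and 2.56% higher at that level in the same fit. The lowest adjusted p of any member was 0.996 by that test. In these 6 samples the share and the groups are partly aligned, so the fit cannot fully separate them.

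Leaving out both libraries with the lowest ribosomal protein share, a choice made after seeing the data, gave another picture in the 4 samples that remained. The same 2 libraries were lowest in the summed level of the tested members, at 910 and 1293 CPM. The choice thus touched the members' own values, so the adjusted p-values below are no test of them. Without NT replicate 2 alone 0 members were called. With both left out, 4 G2/M genes fell past the threshold in edgeR's exact test. They were CCNB1 (log2 fold change -1.51, adjusted p = 0.0233), CENPE (-1.28, adjusted p = 0.0233), TOP2A (-1.08, adjusted p = 7.85e-04) and MKI67 (-1.18, adjusted p = 0.0115). CENPF had an adjusted p of 3.24e-04 in the same exact test with a log2 fold change of -0.99, just short of 2-fold. Of 47 members tested in that subset 40 were lower and 7 higher, where 48.9% of all 11975 genes tested had a lower mean. Of those 11975 genes 32 were called lower and 8 higher. The remaining samples still differed in ribosomal protein share, at 0.388% and 0.401% in the knockdown against 0.528% and 0.547% in the controls. In these 4 samples the share and the groups cannot be told apart, and the part of the share in these calls was not tested.

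The G2/M genes were shifted further than the G1 regulators in the comparison of all 6 samples. Of 32 tested G2/M genes 31 were lower and 1 higher, with a median log2 fold change of -0.48. Of 10 tested G1 regulators 8 were lower and 2 higher, with a median of -0.15. The difference of the medians was -0.33. It kept its sign when any single library was left out, between -0.50 (without knockdown replicate 3) and -0.12 (without NT replicate 1), and with the ribosomal protein share as covariate the medians were 0.01 for G2/M and 0.05 for G1.

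The lists also differ in their overlap with exons on the opposite strand, described further on, which 8 of the 10 G1 regulators and 8 of the 32 G2/M genes have. Among members with such overlap the median log2 fold change was -0.15 for G1 and -0.30 for G2/M, and among those without it -0.51 for the 2 G1 regulators (CDKN1B and RB1) and -0.61 for the 24 G2/M genes. The part of this overlap in the difference between the lists was not tested.

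Per length, the summed G2/M level was 1.74, 1.53 and 1.73 times the summed G1 level after knockdown and 2.21, 1.58 and 1.86 times in the controls (1.66 ± 0.113 against 1.88 ± 0.314, n = 3 each). The groups overlapped in this ratio because NT replicate 2 lay among the knockdown samples. Since the list was assembled with earlier results of these data known, no p is given for either list.

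**Figure D4:**
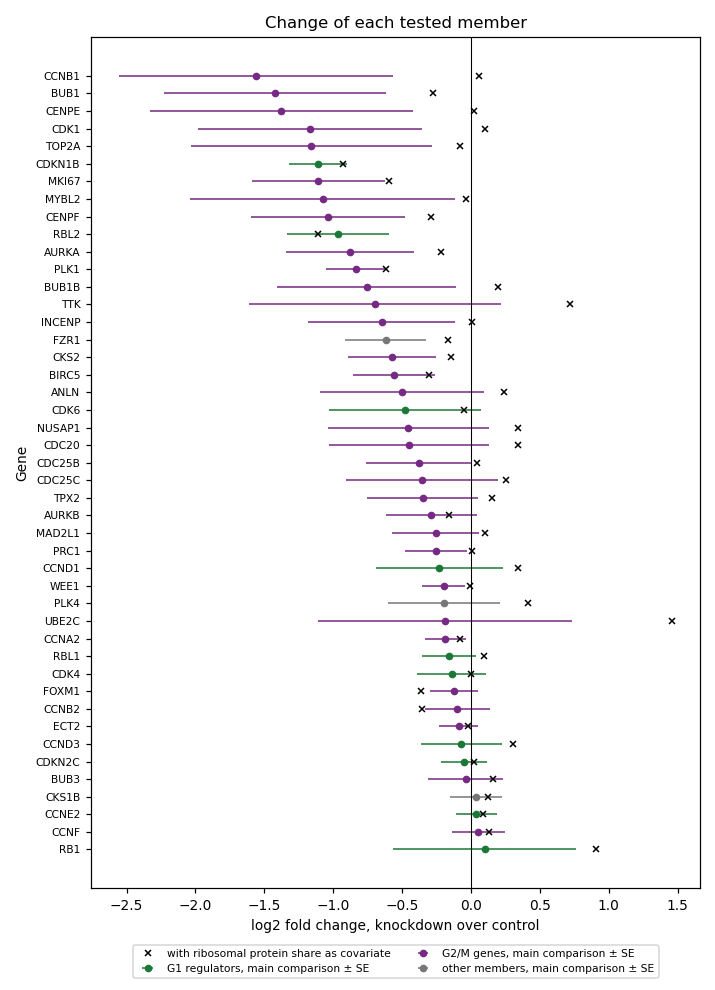
Log2 fold change of each of the 45 tested genes, DNM3OS knockdown over non-targeting control, with its standard error as a bar, coloured by list, and as a cross the estimate with the ribosomal protein share as covariate. The points run from -1.56 (CCNB1) to 0.10 (RB1), mostly left of 0, whereas 19 of the crosses lie below 0 and 26 above it.

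Among the cyclins, 7 of 10 were tested, 5 lower and 2 higher, with a median log2 fold change of -0.10. CCNB1, the mitotic cyclin that activates CDK1, had 3, 10 and 14 counts in the knockdown and 49, 6 and 34 in the controls. NT replicate 2 was lower than knockdown replicates 2 and 3. Its log2 fold change of -1.56 ± 0.997 (SE) was the lowest of the members, with an unadjusted p of 0.0388 by edgeR's exact test and an exact two-sided permutation p of 0.3 (the smallest that 3 against 3 allow is 0.1). CCNB1 ran from -2.14 (without knockdown replicate 3) to -1.04 (without NT replicate 1) when single libraries were left out, and stood at 0.06 with the ribosomal protein share as covariate.

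CCND1 had 94, 78 and 122 counts in the knockdown and 147, 61 and 151 in the controls. These groups overlapped fully, and NT replicate 2 was the lowest sample. The log2 fold change was -0.23 ± 0.461, which ran from -0.56 (without knockdown replicate 3) to -0.03 (without knockdown replicate 1). CCNE2, the second E-type cyclin, had 93, 76 and 84 against 79, 83 and 84 counts, a log2 fold change of 0.04 ± 0.148. CCNF, an F-box protein that restrains centrosome duplication, was also level, with 58, 59 and 41 against 58, 49 and 45 counts (0.05 ± 0.194). CCNE1 was too sparse to test, with 0, 1 and 3 counts in the knockdown and 7, 2 and 2 in the controls.

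Among the cyclin-dependent kinases and their CKS subunits, 4 of 5 tested members were lower, with a median of -0.48. CDK1, the kinase of mitotic entry, had 2, 7 and 12 counts in the knockdown and 23, 6 and 23 in the controls. NT replicate 2 fell inside the knockdown range, and the log2 fold change of -1.17 ± 0.814 had an unadjusted p of 0.104 by edgeR's exact test. It ran from -1.93 (without knockdown replicate 3) to -0.63 (without knockdown replicate 1), and stood at 0.10 with the ribosomal protein share as covariate. CDK4, with 249, 300 and 260 against 299, 297 and 316 counts, differed by -0.14 ± 0.252. CKS1B, a small subunit that also helps the SCF ligase recognise p27, had 37, 32 and 23 against 27, 25 and 37 counts, and its log2 fold change was 0.03 ± 0.188.

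Of the CDK phosphatases, inhibitors and WEE1, 5 of 8 were tested and all 5 were lower. CDKN1B encodes p27, which holds cyclin E and CDK2 inactive in resting cells. It had 8, 7 and 4 counts in the knockdown and 15, 10 and 16 in the controls, so that the groups did not overlap. The log2 fold change was -1.11 ± 0.212, with an unadjusted p of 0.0223 by edgeR's exact test and an exact two-sided permutation p of 0.1, the smallest possible. With the ribosomal protein share as covariate the estimate was -0.93 with an unadjusted p of 0.0960 in the quasi-likelihood test. CDKN1A, encoding the p53-induced inhibitor p21, had at most 2 counts in any sample, below the level of 3 counts at which a change could be read. CDKN2A, encoding the CDK4 inhibitor p16, was the member at 0 counts in all 6 samples, which allows up to 1.61 to 1.97 CPM, a limit that covers counting error only.

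Among pocket proteins and transcription factors, 4 of 5 tested members were lower, with a median of -0.16. RBL2, or p130, is the pocket protein of the complex that represses cell cycle genes in resting cells. It had 22, 13 and 9 counts in the knockdown and 40, 27 and 17 in the controls, and only NT replicate 3 reached into the knockdown range. Its log2 fold change was -0.97 ± 0.370, with an unadjusted p of 0.0198 by edgeR's exact test and an exact two-sided permutation p of 0.2. It ran from -1.25 (without NT replicate 3) to -0.68 (without NT replicate 1), and was -0.42 on length-scaled TPM counts. On those counts the groups of RBL2 did not overlap. RB1 itself, with 4, 16 and 14 against 15, 8 and 11 counts, had the highest fold change of the members, 0.10 ± 0.661, within its spread.

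FOXM1 had 102, 58 and 51 counts in the knockdown and 72, 82 and 68 in the controls. These differed by a log2 fold change of -0.12 ± 0.176. Unlike most G2/M genes it was not lowest in knockdown replicate 1. MYBL2, which partners the activating form of the same complex, had 4, 19 and 31 against 60, 20 and 48 counts, where the groups overlapped (-1.08 ± 0.962). E2F1, the activator released by the retinoblastoma protein, had 3, 3 and 12 counts against 10, 8 and 18 and was not tested.

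All 4 mitotic kinases were lower, with a median of -0.56. PLK1, needed for centrosome maturation and spindle assembly, had 35, 21 and 29 counts in the knockdown and 56, 36 and 59 in the controls. Every control was above every knockdown sample. The log2 fold change of -0.83 ± 0.216 had an unadjusted p of 0.00611 by edgeR's exact test and the smallest exact two-sided permutation p of 0.1, and it lay between -0.97 and -0.73 when any single library was left out. On length-scaled TPM counts it was -0.53 with an unadjusted p of 0.214 by edgeR's exact test, and the groups overlapped. In all, 94.3% of the counts of PLK1 were assigned to 1 transcript with a retained intron and 1.31% to its protein-coding transcripts.

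AURKA, the Aurora kinase of the spindle poles, had 12, 10 and 15 counts in the knockdown and 36, 11 and 23 in the controls. NT replicate 2 lay within the knockdown range. The log2 fold change was -0.88 ± 0.462, from -1.18 (without NT replicate 2) to -0.48 (without NT replicate 1), and -0.21 with the ribosomal protein share as covariate.

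All 5 spindle checkpoint genes were lower, with a median of -0.70, and none was below an unadjusted p of 0.05. They ranged from BUB1, a kinase at unattached kinetochores, with 1, 11 and 3 against 20, 6 and 18 counts (-1.42 ± 0.806), to BUB3, its partner and the member with the most counts, with 298, 389 and 278 against 339, 303 and 374 (-0.04 ± 0.271). The groups overlapped in both, though on length-scaled TPM counts those of BUB1 did not.

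Of the 12 genes of the centromere, the passenger complex, the spindle and cytokinesis, 11 were tested and all 11 were lower, with a median of -0.56. MKI67, whose product Ki-67 coats mitotic chromosomes, had 40, 55 and 23 counts in the knockdown and 110, 47 and 103 in the controls. NT replicate 2 lay below knockdown replicate 2 in CPM, whereas on length-scaled TPM counts every knockdown sample was below every control. MKI67 had the lowest p of the members, an unadjusted 0.00400 by edgeR's exact test. Its log2 fold change was -1.11 ± 0.481, with an exact two-sided permutation p of 0.2. It ran from -1.55 (without knockdown replicate 2) to -0.90 (without knockdown replicate 3).

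TOP2A, the topoisomerase that untangles sister chromatids, had 36, 96 and 112 counts in the knockdown and 325, 75 and 207 in the controls. The controls ran from below 2 of the knockdown samples to above all of them, and the log2 fold change was -1.16 ± 0.877 (unadjusted p of 0.0360 by edgeR's exact test). The exact two-sided permutation p of TOP2A was 0.3. TOP2A ran from -1.55 (without knockdown replicate 3) to -0.69 (without NT replicate 1), and stood at -0.08 with the ribosomal protein share as covariate. CENPF, a late G2 kinetochore protein, had 44, 74 and 68 against 178, 66 and 163 counts, with NT replicate 2 inside the knockdown range. Its log2 fold change was -1.04 ± 0.561, and -0.29 with that covariate. The main comparison gave an unadjusted p of 0.0101 by edgeR's exact test and an exact two-sided permutation p of 0.3. The fold change ran from -1.33 (without NT replicate 2) to -0.70 (without knockdown replicate 1). On length-scaled TPM counts CENPF was at -0.13 with an unadjusted p of 0.669 by edgeR's exact test, and its level per length was 19.9 ± 0.721 TPM in the knockdown and 21.5 ± 5.05 TPM in the controls (n = 3 each).

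CENPE, a kinesin of the kinetochore, had 4, 15 and 19 against 51, 10 and 49 counts (-1.38 ± 0.956), and NT replicate 2 once more fell among the knockdown samples. On length-scaled TPM counts every knockdown sample of CENPE was below every control, an order that 4.03% of all genes tested so show. BIRC5, or survivin, of the passenger complex, had 23, 32 and 25 counts in the knockdown and 38, 35 and 47 in the controls, without overlap. Its log2 fold change was -0.56 ± 0.296, with an unadjusted p of 0.112 by edgeR's exact test. CENPA, the histone variant that marks centromeres, was too sparse to test. Its 5, 6 and 1 counts in the knockdown were all below its 17, 9 and 10 in the controls, an order that 3.17% of 22748 genes show without the filter.

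The anaphase-promoting complex was represented by its activators CDC20 and FZR1, its E2 enzyme UBE2C and its substrate PTTG1, or securin. The 3 that were tested were lower, with log2 fold changes between -0.62 and -0.19. UBE2C had 2, 8 and 13 counts in the knockdown and 12, 2 and 15 in the controls, lowest in knockdown replicate 1 and NT replicate 2 alike. PTTG1 had 0, 3 and 1 counts against 7, 4 and 5, did not overlap, and was too sparse to test. The 13 untested members, 9 of them G1 regulators, had at most 18 counts in any sample. Beside CENPA and PTTG1, none of these was separated between the groups, where 3.17% of all genes without the filter lay wholly below the controls.

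Overlap with genes on the other strand divided the members. The sources used here do not say whether counting took strand into account. If it did not, reads of 2 genes whose exons overlap on opposite strands cannot be told apart. Nor do they say which strand was counted, so a lack of such overlap does not by itself make the counts of a member sound. The 87 ribosomal protein genes took 0.234% to 0.547% of gene counts and PLLP 15.7% to 22.2%. The part of strand in this was not tested. Such overlap was found for 17 of the 45 tested members, against 45.3% of all tested genes. The 28 members without it had a median log2 fold change of -0.57 and a median ratio of 3.72 between the highest and lowest of the 6 samples in CPM. In the 17 with overlap these were -0.23 and 1.75. Knockdown replicate 1 and NT replicate 2 were both below the other 4 samples in 14 of the 28, where 16.4% of all genes without overlap show this, and in 6 of the 17, where 20.3% of all genes with overlap do.

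Some members with many counts lie opposite genes that are counted more highly. CDK4 shares 44.2% of its exon bases with exons of TSPAN31, which had 1521 to 2161 counts a sample. CCNE2 shares 37.1% with genes opposite, mainly INTS8 with 608 to 689 counts. CCND1 lies partly opposite LTO1 (526 to 1017 counts), CCNA2 opposite EXOSC9 (184 to 324) and FOXM1 opposite ITFG2 (491 to 646). The values of these 5 members are uncertain if strand was not used, and so are those of the other members with such overlap. Among the latter are PRC1 (34.3% of exon bases), RBL2 (16.4%) and PLK1 (12.8%), whose main opposite genes were not quantified.

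Isoform assignment also varied. The median tested member had 88.1% of its counts on protein-coding transcripts, but 9 tested members had under 50%. A transcript with a retained intron held the most counts in AURKB, PLK1, BIRC5 and WEE1, and PLK1 and BIRC5 are 2 of the 3 members without overlap between the groups.

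Other genes of the same pathways were less uniform. Of 17 tested condensin and cohesin genes, which compact chromosomes and hold sister chromatids together, 15 were lower and 2 higher, with a median of -0.31 and 4 at an unadjusted p below 0.05 by edgeR's exact test (SMC2, SMC3, SMC1A and STAG2). SMC2, a core condensin ATPase, had 9, 17 and 24 counts in the knockdown and 92, 17 and 41 in the controls. Other passenger and central spindle genes were lower in 13 of 16, with a median of -0.41 and 0 at that level. The outer and inner kinetochore divided into 13 lower and 11 higher of 24, and the subunits of the anaphase-promoting complex into 5 lower and 7 higher of 12.

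E2F and DREAM genes outside the list were lower in 5 of 9, the SCF ligase in 4 of 5, and the remaining cyclins, kinases and inhibitors in 5 of 7. Targets of p53 were lower in 3 and higher in 5 of 8, with a median of 0.19. No gene of these lists was called by edgeR's exact test, and apart from the 4 condensin and cohesin genes none was below an unadjusted p of 0.05 in the lower direction.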

How the data were processed

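SKOV3 cells were profiled in 3 DNM3OS knockdown and 3 non-targeting samples, grouped by their labels. The authors quantified paired reads with kallisto 0.43.0 (submitters' processing notes) on GRCh38 and deposited for each of 173259 transcripts an estimated count without normalization, a TPM and an effective length. Strand option and bias correction are not given in the sources used here. The deposited estimated counts of 155518 transcripts found in GENCODE release 44 were summed per gene and rounded, and the other 17741 transcripts were left out. The deposited TPM were summed per gene without rescaling.

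Genes were filtered with edgeR's filterByExpr (minimum count 10), scaled by TMM and compared with edgeR's exact test (edgeR 4.0.16, R 4.3.3), as in the study's methods, with Benjamini-Hochberg adjustment over all 11814 tested genes and a threshold of 2-fold with an adjusted p below 0.05. CPM use TMM-scaled library sizes, and standard errors come from log2 CPM with a prior count of 2. Single genes were also compared by an exact two-sided permutation test over all assignments of the samples, and scripts were tested on simulated data. No 2 samples agreed within sampling noise (chi-square per degree of freedom at least 2.18). The members, lists and tests were chosen with earlier results of these data known. Members named were the 6 with the lowest p in each direction (4 where only 4 were higher), 13 anchors of the main roles, the 5 highest levels, those at 0 and those behind counts of 5 or fewer. BUB1, BUB3, MYBL2 and SMC2 were named after their values were seen. Motifs were searched in RefSeq promoter windows, and exon overlaps were computed with bedtools 2.31.1. As alternatives, the comparison was run with DESeq2 1.42.0, with edgeR's quasi-likelihood test (also blocked on replicate number) and with RLE scaling. It was also run under other filters, on counts derived from TPM and length, and on protein-coding genes alone. Further fits had the log2 of the ribosomal protein share as covariate or left out each library in turn.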

Additional observations from a re-analysis of the deposited data

How the results depend on the processing

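Of the 58 members 33 had a mean below 30 counts, which limits what could be detected. With 1 gene of the whole table called lower and 0 higher in the main comparison, the quasi-likelihood test with or without the replicate block, DESeq2 and the ribosomal protein covariate called 0 lower, no filter and the filter of 1 CPM in 3 samples 2, and length-scaled TPM counts 3, while the covariate called 1 higher. Same-numbered samples had correlations of -0.40, -0.34 and 0.23 in their deviations from the group means, so the numbers were not taken to pair the samples. With the replicate block 4 members were lower at an unadjusted p below 0.05 (0.906% of all tested genes) in place of 8, and RB1 turned to -0.0478. Length-scaled TPM counts gave 5 such members (BUB1, CENPE, INCENP, TOP2A and MKI67, no longer PLK1, CENPF, RBL2 or CCNB1, and CDKN1B not tested), where 2.45% of all tested genes were lower at that level. They also gave 7 members wholly below the controls (4.03% of all genes tested so), namely RBL2, PLK4, BUB1, CENPE, INCENP, BIRC5 and MKI67. On these counts 8 members had a higher mean, and no filter gave 7 with a higher mean. With the ribosomal protein share as covariate, 19 members had a lower and 26 a higher mean, and 2 were lower and 1 higher at an unadjusted p below 0.05 (1.66% and 2.56% of all tested genes). The median was then 0.0201 for all members and 0.00628 for G2/M genes, and CDK1, CCNB1 and CCND1 turned to 0.10, 0.0601 and 0.34. Knockdown replicate 1 and NT replicate 2, left out together after the data were seen, were lowest in the members' own summed level. Of 11975 genes 32 were then called lower and 8 higher. Among the members 4 were called lower, 7 had a higher mean, and 15 were lower at an unadjusted p below 0.05 (5.63% of all genes) in edgeR's exact test. Wholly below the controls lay 22 members and wholly above them 2 (19.9% and 20.6% of all genes with 2 samples against 2). Leaving out 1 library at a time gave 0 to 3 genes called lower, 0 to 1 called higher, 34 to 47 members with a lower and 1 to 13 with a higher mean, and 0 called members. It gave 2 (without NT replicate 1, 0.55% of all genes) to 13 members (without NT replicate 2, 5.22% of all genes) lower at an unadjusted p below 0.05. Wholly below the controls were 3 (without NT replicate 1, 6.02% of all genes) to 20 members (without NT replicate 2, 15% of all genes), and wholly above 0 to 1. The medians then ran from -0.58 to -0.13 for all members, from -0.29 to 0.01 for G1 and from -0.76 to -0.26 for G2/M, nearest to 0 without knockdown replicate 1 in each case. CCNF ran from -0.13 to 0.18, CCNE2 from -0.0712 to 0.17, RB1 from -0.29 to 0.61, CKS1B from -0.0917 to 0.19 and FOXM1 from -0.24 to 0.0291, so their signs turned. The causes of these changes were not tested.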
